A study of Mus musculus with 13 samples.

Results

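The regions described here were among the strongest open regions of mouse embryonic forebrain (FB) and not among those of forelimb at the same stage. In each of 12 ATAC-seq libraries the 50000 strongest regions were kept on chromosomes 1 to 19, with chromosome 2 taken only below 75 Mb, and the 12 lists were merged into 112414 consensus regions. A consensus region was called FB-only when it was overlapped by a region of all 4 FB lists and by none of the 8 limb lists. This gave 9793 FB-only regions, 8.71% of all consensus regions, covering 8.04 Mb with a median width of 797 bp. They were chosen by their presence in FB and their absence in limb, so their height in FB and their low level in limb are given as a description and were not tested.

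Chromatin accessibility was assayed in E12.5 embryos (B6CBAF1 strain) with the Tn5 transposase on 50000 cells per library. Forebrain, distal forelimb (DFL) and proximal forelimb (PFL) were dissected from wild-type (wt) embryos and from II1TDOM 542 embryos, with 2 replicates for each of the 6 groups. The 542 embryos were homozygous for a single copy of the II1 digit enhancer inserted in T-DOM, the telomeric regulatory domain next to the HoxD genes, together with a minimal HBB promoter and a LacZ reporter. A replicate was a pool of tissue from several embryos of separate litters, and 542 was a single inserted allele. No treatment was given, and a further wt DFL library from earlier work was kept out of the rule.

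Accessible regions away from gene starts are often enhancers, stretches of DNA where transcription factors bind and act on genes that may lie far away. The forebrain at this stage holds dividing progenitors of the pallium, the future cortex, and of the subpallium, the source of the striatum and of inhibitory interneurons, beside the first young neurons and the diencephalon. Factors active there include homeodomain proteins of the LHX, EMX and DLX families, POU proteins such as POU3F2, SOX proteins such as SOX2, and basic helix-loop-helix proteins such as NEUROG2, which bind E-boxes.

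Of the 9793 sequences 7 are shown, each 300 bases of the plus strand of GRCm38 (mm10) around the median FB summit, because they are the strongest FB-only region of all, the strongest nearest to a gene of each of 5 neural gene lists, and the strongest that held 3 of the motifs counted below. Capitals mark matches on either strand to the homeodomain core TAATTA, the POU octamer ATGCAAAT, the SOX motif ACAATG, the E-boxes CAGCTG and CAGATG, the OTX type homeodomain motif GGATTA and the RFX motif GTTGCCA. The strongest region lay at chr3:47668893-47669192, the Nr2f2 region at chr7:70424240-70424539, the Isl1 region at chr13:116575622-116575921, the Otx1 region at chr11:22017485-22017784, the Sox2 region at chr3:34411536-34411835, the Nrxn3 region at chr12:88910821-88911120 and the region near Myc at chr15:62284623-62284922. The last was chosen after its letters were seen.
Pabpc4l region: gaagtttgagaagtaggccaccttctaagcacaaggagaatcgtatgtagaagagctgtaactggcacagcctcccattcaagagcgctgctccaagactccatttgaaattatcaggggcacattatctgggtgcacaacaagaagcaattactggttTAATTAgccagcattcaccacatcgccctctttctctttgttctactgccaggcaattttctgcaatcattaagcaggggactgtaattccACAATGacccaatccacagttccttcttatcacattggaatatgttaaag
Nr2f2 region: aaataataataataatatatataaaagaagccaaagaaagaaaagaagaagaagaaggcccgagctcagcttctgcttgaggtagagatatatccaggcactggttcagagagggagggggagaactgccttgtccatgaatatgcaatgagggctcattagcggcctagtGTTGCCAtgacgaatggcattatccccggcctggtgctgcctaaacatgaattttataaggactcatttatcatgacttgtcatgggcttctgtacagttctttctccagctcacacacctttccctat
Isl1 region: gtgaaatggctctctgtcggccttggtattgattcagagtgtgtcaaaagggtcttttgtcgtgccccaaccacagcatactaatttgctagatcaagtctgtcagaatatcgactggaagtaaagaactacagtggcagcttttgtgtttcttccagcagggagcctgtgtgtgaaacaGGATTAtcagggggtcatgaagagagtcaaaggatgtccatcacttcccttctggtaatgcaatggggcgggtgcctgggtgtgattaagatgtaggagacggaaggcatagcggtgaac
Otx1 region: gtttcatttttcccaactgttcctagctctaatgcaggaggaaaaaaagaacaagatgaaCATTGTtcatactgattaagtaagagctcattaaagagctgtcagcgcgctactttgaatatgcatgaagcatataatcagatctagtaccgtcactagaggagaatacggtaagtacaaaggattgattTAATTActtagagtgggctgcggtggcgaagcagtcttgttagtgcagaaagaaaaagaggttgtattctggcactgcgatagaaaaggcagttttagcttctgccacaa
Sox2 region: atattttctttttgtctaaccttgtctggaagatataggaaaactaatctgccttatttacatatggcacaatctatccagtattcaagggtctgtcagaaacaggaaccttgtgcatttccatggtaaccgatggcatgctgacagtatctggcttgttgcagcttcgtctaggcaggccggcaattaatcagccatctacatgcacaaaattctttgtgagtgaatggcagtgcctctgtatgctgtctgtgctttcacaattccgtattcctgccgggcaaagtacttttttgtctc
Nrxn3 region: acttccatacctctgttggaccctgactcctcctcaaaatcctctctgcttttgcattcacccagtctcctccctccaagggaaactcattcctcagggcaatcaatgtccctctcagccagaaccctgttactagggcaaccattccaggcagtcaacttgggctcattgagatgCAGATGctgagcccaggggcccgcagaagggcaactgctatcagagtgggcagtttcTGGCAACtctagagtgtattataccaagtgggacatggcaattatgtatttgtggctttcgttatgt
Myc region: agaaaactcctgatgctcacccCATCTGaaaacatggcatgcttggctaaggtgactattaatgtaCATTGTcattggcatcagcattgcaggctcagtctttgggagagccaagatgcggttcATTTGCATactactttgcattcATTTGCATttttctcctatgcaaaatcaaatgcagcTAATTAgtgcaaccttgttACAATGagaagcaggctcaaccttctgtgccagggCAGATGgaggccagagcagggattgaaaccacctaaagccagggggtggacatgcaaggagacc

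The Pabpc4l region was intergenic, 1220824 bp from the nearest protein-coding start, and held 1 homeodomain core and 1 SOX motif. The Sox2 region lay in an intron of Sox2ot, 238719 bp from the start of Sox2, and held none of the 7 motifs. The Otx1 region lay in an intron of Ehbp1, 14738 bp from Otx1, with 1 homeodomain core and 1 SOX motif. The Nrxn3 region was in an intron of Nrxn3 itself, with 1 CAGATG and 1 GTTGCCA. The Myc region, in an intron of Pvt1, held 7 matches in 300 bases, of which 2 were octamers, 2 SOX motifs, 2 CAGATG and 1 the homeodomain core.

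Library depth is not used here as such, and was estimated from the commonest local background among a library's regions. The estimates were 51.4 to 70.7 M tags in the FB libraries (M, mega) and 37.5 to 54.5 M in the limb libraries. 3 of the 4 FB libraries lay above every limb library, and the last region of a list had a -log10 q-value of 10.4 to 14.6 in FB and 6.53 to 11.8 in limb. The part of depth in the number of FB-only regions was not tested beyond the list lengths given with the other settings. By the number listed, the gene starts of the forebrain markers did not separate the tissues. In every FB library 6 of 7 markers had a listed region within 1000 bp of a start. Lhx2, Emx2, Pax6, Dlx2, Sox2 and Neurog2 were among the 7. In the limb libraries 5 or 6 had one, and Pax6 lay in the part of chromosome 2 not used. Ranks differed for some starts. That of Sox2 ranked 7985 to 10525 in FB and 18386 to 45274 in limb, whereas the ranks of Lhx2 overlapped. The surrounding regions separated the tissues, with 39 FB-only regions nearest to these 7 genes against 5 regions that were DFL-only, PFL-only or pan-limb. For the limb mesenchyme markers Prrx1, Tbx5, Hand2, Hoxa13, Twist1 and Shox2 the numbers were 3 FB-only regions against 18, of which 11 were at Hand2. The starts of these 6 genes did not separate the tissues clearly either, with 3 or 4 listed in an FB library and 4 or 5 in a limb library. Of the muscle markers Myf5 and Myod1, 0 to 1 start was listed in FB, of the ectoderm markers Trp63 and Krt14 none, of the endothelial markers Kdr, Tie1 and Cdh5 1 (Kdr), and of the blood and microglial markers Klf1, Gfi1b, Spi1 and Csf1r 1 to 2. The genes of these 4 cell types had 4 FB-only regions nearest to them, 2 at Trp63, 1 at Kdr and 1 at Cdh5.

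The other sets of consensus regions compared here are 2120 DFL-only regions (all 4 DFL lists, no other), 2046 PFL-only regions, 5407 pan-limb regions (all 8 limb lists, no FB list) and 18691 regions in all 12 lists. Of the 37552 regions in all 4 FB lists, 26.1% were FB-only and 49.8% were in all 12 lists.

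The strongest FB-only regions rose about 20-fold over the local background. Height is given as the fold at the strongest summit, the number of tags in a 200 bp window over that expected from the local background. The Pabpc4l region had a fold of 20.7 and 20.03 in wt FB and of 19.7 and 20 in 542 FB, from 240 to 295 tags, and its mean was 20.1 ± 0.430 (SD, n = 4). Both 542 values lay below both wt ones, and the comparison of genotypes given last did not call this region. A single limb library held a weak region there with a fold of 3.50.

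The second, 846504 bp from Basp1, which encodes a growth cone protein, had folds of 19.2 and 19.2 in wt and 20.1 and 20.4 in 542, a mean of 19.8 ± 0.629. The third lay in an intron of Gm33056, 46309 bp from Olig3, a transcription factor of early neural progenitors, with 20.1 and 19.3 in wt and 19.2 and 19.8 in 542. None of the 8 limb libraries held a region of any rank at either place. The next lay on chromosome 2 at 74426476 to 74427477, 151262 bp from Lnpk and on the centromeric side of the HoxD genes, with 19.9 and 18.3 in wt and 20.9 and 17.9 in 542, and 3 limb libraries held a weak region there, the highest with a fold of 4.24.

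The other 6 of the 10 strongest had mean folds of 18.4 to 19.1. They were nearest to Pcdh7 and Pcdh20, which encode protocadherins, to Abcc12, to Rgmb, of the repulsive guidance molecule family, to Inhbb, an activin subunit, and to Ptprn2. Their values in single FB libraries ran from 16.8 to 20.7. Of these 10 regions 8 were intergenic and 2 intronic, at 33392 to 1220824 bp from the nearest start.

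**Figure D1:**
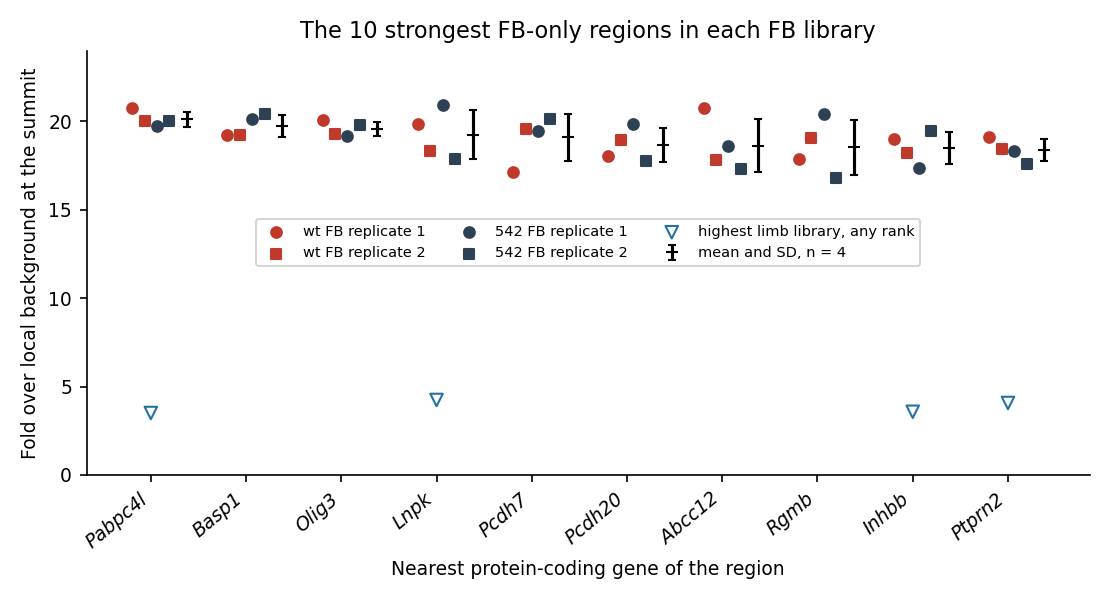
Fold over local background (vertical axis) of the 10 strongest FB-only regions, named by nearest protein-coding gene, in the 4 FB libraries (filled points, wt red and 542 dark), with the mean and SD over the 4 libraries in black. Open triangles give the highest value among the 8 limb libraries where any held a region of whatever rank; all FB values sit between 16.8 and 20.9 and the 4 triangles between 3.50 and 4.24.

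Most FB-only regions were of middling height. Their mean fold had a median of 7.33, with 5% of them under 4.78 and 5% over 12.6, and 1752 of them, 17.9%, reached 10. The median fold was 7.56 and 7.25 in the wt FB libraries and 7.29 and 7.28 in the 542 FB libraries, while regions in all 12 lists had medians of 11.9 to 12.7 in the same libraries. Only 3.78% to 5.52% of the FB-only regions were among the 10000 strongest of an FB library, against 48.1% to 49.5% of the regions in all 12 lists. The number of tags at the summit, recovered from the deposited fold and p-value for at least 99.8% of the regions, had medians of 79, 62, 70 and 57 in wt replicates 1 and 2 and 542 replicates 1 and 2.

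Replicate spread was small beside the range among regions. The SD over the 4 FB libraries was 12.4% of the mean for the median region. Across the 9793 regions the log2 folds of pairs of FB libraries had Pearson's r of 0.772 to 0.839, a description over regions that share libraries. The summits of a region in 2 libraries lay a median of 19 to 21 bp apart.

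The rule has a sharp edge. The members that entered last were nearest to Neto1, B3gat1 and Znrf4, with a weakest rank of 49999, 49994 and 49993 and folds of 4.06 to 6.67. The regions that missed by least, nearest to Dscaml1, Ankrd40 and Slc16a14, ranked 50010, 50015 and 50019 in the FB library they were missing from, with folds of 3.12 to 7.85. In all, 3449 regions were in 3 of 4 FB lists and in no limb list, and 94.1% of them were called in the remaining FB library at a lower rank. A further 1391 regions were in all 4 FB lists and in 1 limb list.

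Absence from the limb lists did not mean absence from the limb libraries. In the full deposited files 5994 FB-only regions (61.2%) had no region of any rank in any of the 8 limb libraries, 1381 had one in 1 limb library, 900 (9.19%) in 4 or more and 19 in all 8. A single limb library held a weak region at 5.48% to 18.6% of them, with a median fold of 3.17 to 3.47 there. The lowest share came from 542 PFL replicate 2 and the highest from wt DFL replicate 1, which had the lowest and the highest estimated depth among the limb libraries.

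Whether regions chosen on some libraries are found again in others can be tested on libraries left out of the choice. With the rule applied to the 6 wt libraries alone, 14408 regions were FB-only. The 542 FB libraries held 84.6% and 82.8% of them, the 542 DFL libraries 5.05% and 4.38% and the 542 PFL libraries 2.72% and 3.14%. The means were 83.7% ± 1.28 (SD, n = 2) in FB and 3.82% ± 1.08 (SD, n = 4) in limb, a difference of 79.9 percentage points. An exact two-sided permutation test over the 6 libraries gave p = 0.0667, the smallest that 2 against 4 libraries can give, so the design could not pass 0.05.

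In the reverse direction the 542 lists alone chose 13680 of the same consensus regions. The wt FB libraries held 85.6% and 84.2% of them and the 4 wt limb libraries 3.20% to 3.49%, a difference of 81.6 points with the same exact permutation p = 0.0667. Both ways every FB library stood above every limb library. Of the regions chosen in wt, 3 turned to the opposite pattern in 542, in all 4 limb lists and no FB list.

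**Figure D2:**
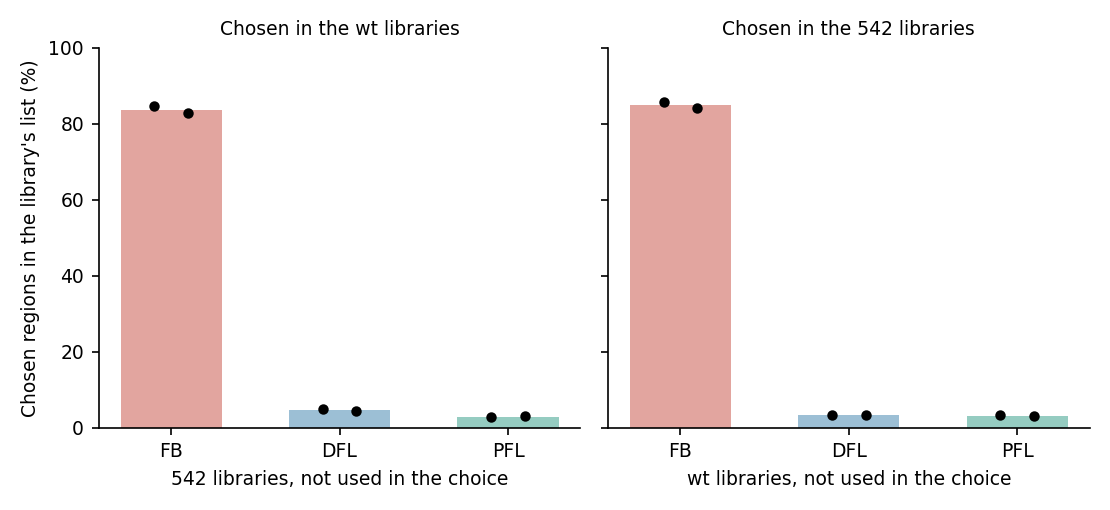
Share of the regions chosen as FB-only in 1 genotype (vertical axis, percent) that were in the list of each library of the other genotype, by tissue; points are libraries and bars their means (n = 2). The FB libraries held 82.8% to 85.6% and the limb libraries 2.72% to 5.05%.

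FB-only regions were almost all distal. Their summits lay in introns in 49.1% and between genes in 45.5%, and 200 of them, 2.04%, lay within 1000 bp of a protein-coding transcript start. The DFL-only, PFL-only and pan-limb regions had promoter shares of 0.991%, 1.86% and 3.27%, and the regions in all 12 lists 57.7%. The median distance to a start was 82815 bp for FB-only regions, 81669 for DFL-only, 72344 for PFL-only and 65018 for pan-limb regions. For 987 FB-only regions, 10.1%, it was over 500 kb, against 9.91% of DFL-only, 7.72% of PFL-only, 5.33% of pan-limb and 5.91% of all consensus regions. These shares are descriptions, since regions of 1 locus are not independent.

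**Figure D3:**
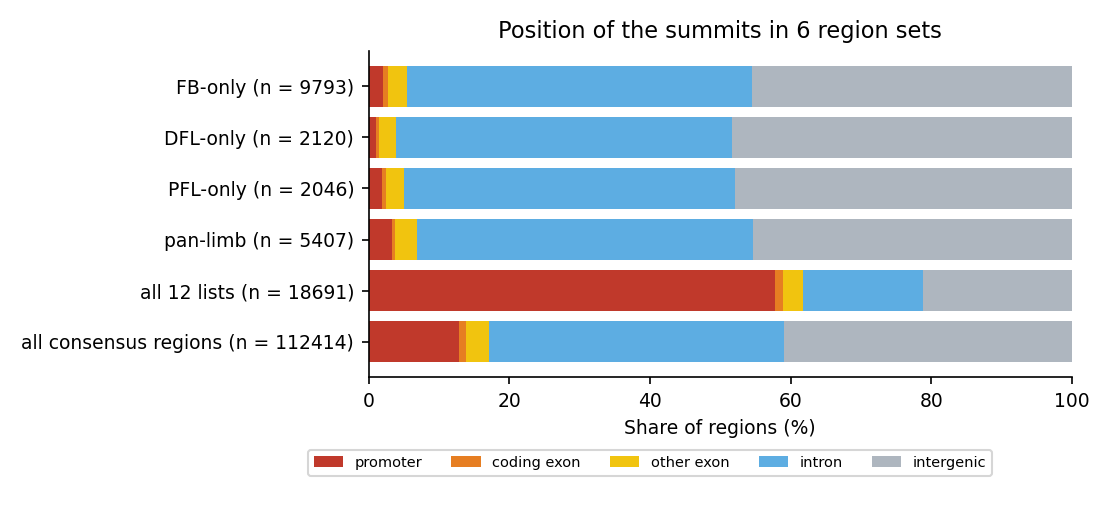
Share of the summits (horizontal axis, percent) at promoters (within 1000 bp of a protein-coding transcript start), in coding exons, other exons and introns and between genes, for FB-only regions, the 4 comparison sets and all consensus regions. Promoters take 2.04% of the FB-only bar and 57.7% of the bar for regions in all 12 lists.

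Among the 200 FB-only regions at promoters the highest were at Smim18 (mean fold 18.0 ± 2.62, SD, n = 4), Btbd8 (17.6 ± 1.49), Ctnnd2, which encodes a neuronal catenin (14.8 ± 1.43), and Celf3, a neuronal RNA-binding protein (14.4 ± 1.10). A pair of FB-only regions lay at starts of Pou2f1, which encodes an octamer-binding POU protein, with mean folds of 13.5 ± 1.87 and 12.7 ± 0.510. These 6 were named after their values were seen.

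FB-only regions were nearest to 3924 of 20698 protein-coding genes, 18.96%, and the 504 genes with 5 or more of them took 41.4%. Of all FB-only regions 48.9% had another within 50 kb, and the median gap to the nearest was 52174 bp. By chromosome the FB-only share of consensus regions ran from 7.42% on chromosome 17 to 9.70% on chromosome 12.

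The genes with most FB-only regions nearest to them were Tenm2 (30 of 137 consensus regions), Robo1 (28 of 167), Zfp608 (26 of 97), Ptprd (24 of 155), Tenm4 (22 of 141), Olfm4 (22 of 96), Nr2f1 (22 of 81), Tenm3 (20 of 175), Mef2c (20 of 99) and Adgrl3 (19 of 151). Teneurins (Tenm2, Tenm3, Tenm4) and the latrophilin Adgrl3 are partners in cell adhesion at synapses, Robo1 is a receptor for Slit guidance cues, and Ptprd is a receptor phosphatase of synapses. Nr2f1 is a nuclear receptor that sets area identity in the cortex. The 30 regions of Tenm2 spread over 2.38 Mb, 13 of them inside the gene, with mean folds of 5.23 to 11.1. Of the 28 at Robo1, 16 were inside the gene, and the strongest, 310227 bp from the start, had folds of 19.5 and 18.9 in wt against 15.7 and 13.8 in 542. The values of the genotypes did not overlap there, but the region was not called (log2 difference of -0.35 between 542 and wt, adjusted p = 0.297, limma). These are large genes or genes beside large gene-poor intervals, and each also had many regions that were not FB-only. DFL-only regions at the 10 genes, in the order listed, numbered 6, 2, 0, 5, 2, 1, 5, 3, 2 and 8. PFL-only regions numbered 1, 8, 2, 6, 0, 4, 2, 6, 2 and 1. Pan-limb regions numbered 1, 11, 5, 6, 12, 5, 2, 10, 4 and 11.

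Transcription factors of the pallium had 81 FB-only regions among 506 consensus regions nearest to them, 16.01% against 8.71% over all genes. Of the 23 genes 18 had at least 1, against 18.96% of all protein-coding genes. The 23 genes had 506 regions nearest to them and all 20698 genes had 112414. Shares by gene, here and in the lists below, thus compare genes with unlike numbers of regions. Pan-limb regions made up 4.55% near the pallial genes and 4.81% over all genes. DFL-only regions made up 2.77% against 1.89%, and PFL-only regions 1.19% against 1.82%. Nr2f1 had 22 FB-only regions. Nr2f2, a nuclear receptor like Nr2f1, had 10 of 74, Lhx2 7 of 19 and Emx2 2 of 23. Nr2f2 also had 3 DFL-only, 1 PFL-only and 6 pan-limb regions, Lhx2 1 pan-limb region and Emx2 2.

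Transcription factors of the subpallium had 61 of 375 regions FB-only, 16.3%, at 14 of 20 genes. Ebf1, a factor of young striatal neurons, had 10 of 54, all inside the gene, the strongest with a mean fold of 11.1 ± 0.632. Zfhx3 had 8 of 76, 7 of them inside the gene, and Sp8 7 of 24. Zfhx3 also had 3 DFL-only, 2 PFL-only and 6 pan-limb regions, Ebf1 1 of each, and Sp8 1 pan-limb region. The strongest of the list was the Isl1 region shown above, with 16.6 ± 0.716, although Isl1 had 6 FB-only regions and also 6 pan-limb ones. Dlx2 had 1, with a mean fold of 5.46.

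Factors of the diencephalon and eye field had 48 of 312, 15.4%, at 14 of 20 genes. Barhl2 had 7 of 26, Otx1 6 of 21 and Otx2, required to form the head and early brain, 6 of 28. Otx1 also had 1 DFL-only and 1 PFL-only region and Otx2 2 pan-limb regions, whereas Barhl2 had none of these. The Otx1 region shown above had a mean fold of 15.6 ± 0.762, and the strongest Otx2 region 12.2 ± 1.38.

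Genes of neural progenitors had the highest share, 98 of 499 or 19.6%, at 20 of 27 genes. Sox2, which maintains progenitors, had 17 of 63 and 2 pan-limb regions. Its FB-only regions spread over 0.738 Mb with mean folds of 3.24 to 17.8, and the strongest, the Sox2 region shown above, had 17.8 ± 1.73. Sox9 had 11 of 76, with a strongest mean fold of 17.6 ± 1.40 at 280205 bp, beside 4 DFL-only, 4 PFL-only and 2 pan-limb regions. Pou3f2 and Pou3f3, POU factors of neural progenitors, had 9 of 43 and 9 of 69, and Id4 had 9 of 34. Pou3f2 also had 2 DFL-only regions, Pou3f3 1 DFL-only, 1 PFL-only and 4 pan-limb regions, and Id4 1 pan-limb region.

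Genes of neuronal differentiation had 122 of 865, 14.1%, at 25 of 30 genes, with Celf4 (18 of 111) and Nrxn3 (13 of 96) in front. Celf4 also had 6 DFL-only, 3 PFL-only and 2 pan-limb regions, and Nrxn3 had 2, 1 and 3. The 13 FB-only regions of Nrxn3, which encodes a presynaptic adhesion protein, all lay inside the gene. Axon guidance and adhesion genes held the most, 297 of 2117 or 14.03%, at 32 of 36 genes. Robo1, Robo2 (19 of 139) and the ephrin Efna5 (18 of 133) were in front. Robo2 also had 3 DFL-only, 3 PFL-only and 10 pan-limb regions, and Efna5 had 2, 2 and 6. Regions of the limb sets were also more frequent near this list, with 2.31% DFL-only, 2.50% PFL-only and 5.72% pan-limb. Over all genes these shares were 1.89%, 1.82% and 4.81%. The strongest of this list was nearest to the cadherin Cdh8, with a mean fold of 17.4 ± 1.83. Cdh8 had 17 FB-only, 11 DFL-only, 3 PFL-only and 4 pan-limb regions. Genes of glutamate and GABA transmission had 64 of 328, 19.5%, at 18 of 23 genes. The kainate receptor Grik2 had 15 of 55 and Grik1 5 of 28. Grik2 also had 2 DFL-only, 1 PFL-only and 1 pan-limb region, and Grik1 had 1 pan-limb region.

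In the lists of other tissues a smaller share of the nearest regions was FB-only than over all genes, with 1 exception. By genes the picture was less clear, since 31.6% of the cartilage and bone genes, 25% of the myogenic and of the endothelial genes and 24% of the limb mesenchyme factors had at least 1 FB-only region, above the 18.96% of all genes. Limb mesenchyme transcription factors had 11 of 293, 3.75%, at 6 of 25 genes, and 6.14% of their regions were pan-limb. Cartilage and bone genes had 21 of 337, 6.23%, of which 10 were at Sox5, a gene that neurons and cartilage both use. Ectoderm genes had 4 of 91, endothelial genes 4 of 160, blood and microglial genes 7 of 113 and ribosomal protein genes 3 of 84. Myogenic genes had 29 of 246, 11.8%, and 20 of these 29 were nearest to Mef2c, which is also a neuronal factor. The neural lists reached 14.03% to 19.6% against 2.50% to 11.8% in the other 7. The lists were made with earlier results of these data known, so the order is a description.

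**Figure D4:**
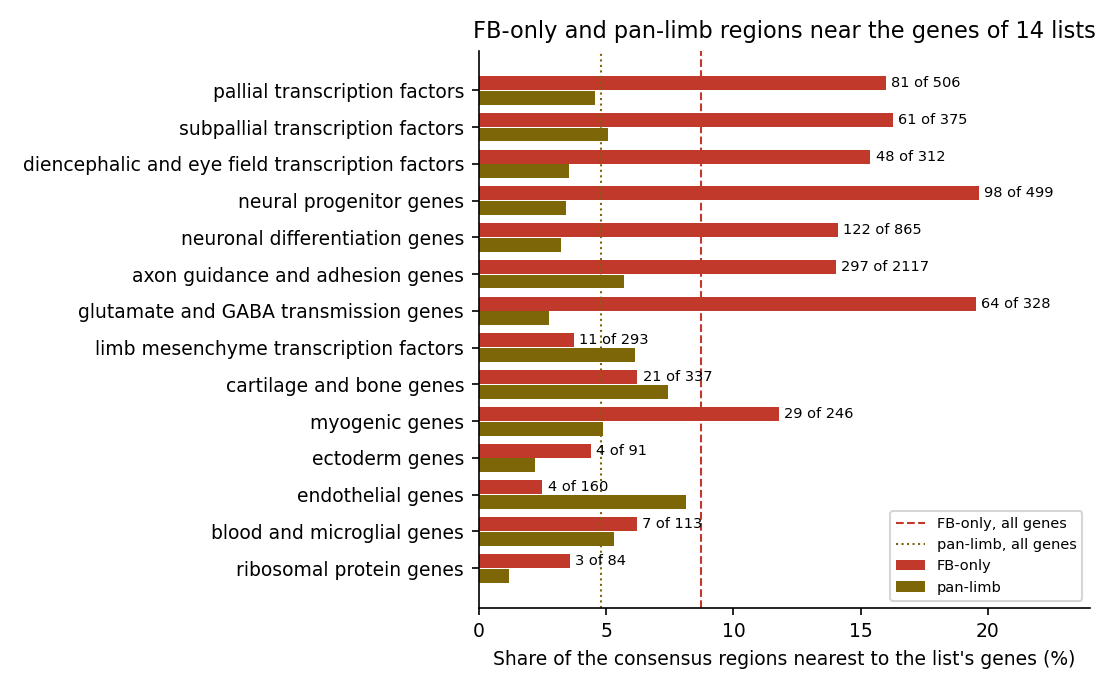
Share (horizontal axis, percent) of the consensus regions nearest to the genes of each of 14 lists that were FB-only (red, with counts) or pan-limb (olive); the dashed and dotted lines are the shares over all genes, 8.71% and 4.81%. The 7 neural lists at the top lie at 14.03% to 19.6% FB-only.

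The densest stretches, counted in windows of 1 Mb, held 20 FB-only regions around Mef2c on chromosome 13, 19 around Robo1, 18 around Sox2, 18 near Mn1 and 17 each around Lhx2 and near Nav2 and Dbx1. In these windows FB-only regions were 15.04% to 25% of all consensus regions.

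Motifs of 3 families, for homeodomain, POU and SOX proteins, were more frequent in FB-only regions than in the other sets. In the 300 bp around the median summit, the homeodomain core TAATTA was present in 33.0% of FB-only regions, in 22.9% of DFL-only, 4.64% of PFL-only and 9.82% of pan-limb regions, in 3.60% of the regions in all 12 lists and in 14.1% of all consensus regions. The POU octamer ATGCAAAT was present in 10.3% of FB-only regions against 1.07% to 1.62% of the 4 comparison sets and 3.03% of all. The SOX motif ACAATG was present in 25.5% against 8.45% to 15.1%, and 15.4% of all. With each library's own summits in place of the median, the FB-only shares were 32.7% ± 0.131, 10.2% ± 0.0534 and 25.4% ± 0.183 (SD, n = 4 libraries). This spread between libraries is below the distance to the other sets, but the 4 libraries share the same regions, and the difference between sets was not tested.

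Other neural motifs were less set apart. GGATTA, bound by OTX proteins, was in 14.6% of FB-only regions, 7.49% of pan-limb, 12.46% of PFL-only and 9.69% of all regions, and the RFX motif GTTGCCA in 6.69% against 3.42% to 4.76% of the comparison sets and 4.95% of all. The E-boxes were common everywhere: CAGCTG was in 26.1% of FB-only regions, 37.6% of PFL-only and 25.5% of all, and CAGATG in 28.8%, 39.4% and 27.5%. The NFI motif TTGGCA was in 22.5% against 18.9% to 20.1% of the 3 limb sets and 18.7% of all.

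Motifs known from limb were less frequent in FB-only regions than in the limb sets, by a varying margin. CAATAAA, bound by HOX13 proteins, was in 5.25% of FB-only regions and 7.22% of all. It was in 20.1% of DFL-only, 11.2% of pan-limb and only 6.74% of PFL-only regions. GGAATG, bound by TEAD proteins, was in 16.4% of FB-only regions and 20.02% of all. It was in 20.8% of DFL-only, 28.0% of PFL-only and 27.2% of pan-limb regions. In regions in all 12 lists both were lower than in FB-only regions, at 2.78% and 12.9%. The GC box GGGCGG was in 6.89% and the CTCF motif in 0.919%, against 51.9% and 7.65% of regions in all 12 lists and 15.2% and 3.82% of all. Of the other motifs searched, 3 lay below or little above their share over all regions and ATCAAAG further above it. In all, 12.47% of FB-only regions and 14.7% of all held AGGTCA (nuclear receptors), 1.05% and 1.41% AGGTGTGA (T-box proteins), 7.18% and 5.14% ATCAAAG (TCF/LEF) and 10.4% and 9.29% TGANTCA (AP-1). Mean GC content was 45.5% in FB-only windows, 43.3% to 46.8% in the 3 limb sets and 59.7% in regions in all 12 lists, so the limb sets are the closer comparison for motifs rich in A and T. The 6 letters of the homeodomain core in the order AATATT were in 9.84% of FB-only regions and 9.78% of pan-limb regions, and the letters of CAGCTG in the order CTGCAG in 19.6% and 22.9%. Those orders were in 8.75% and 21.8% of all regions. Matches to different motifs rarely shared bases, the most frequent case being TAATTA with GGATTA in 32 regions. A match is a stretch of letters and was not tested for binding.

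Matches of the homeodomain, POU and SOX motifs piled up at the summits. Per 100 FB-only regions and 100 bp, TAATTA had 19.02 matches within 50 bp of the summit and 5.43 beyond 300 bp, a ratio of 3.50. The ratio was 5.97 for ATGCAAAT and 1.71 for ACAATG, and 0.936, 0.535 and 0.618 in pan-limb regions. In DFL-only regions TAATTA also rose, with a ratio of 1.95. CAGCTG had ratios of 3.21 in FB-only and 5.84 in PFL-only regions. The reordered controls went both ways. AATATT fell towards the summit, with a ratio of 0.423, whereas CTGCAG rose with a ratio of 1.86, above that of the SOX motif, and had 2.35 in pan-limb regions.

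**Figure D5:**
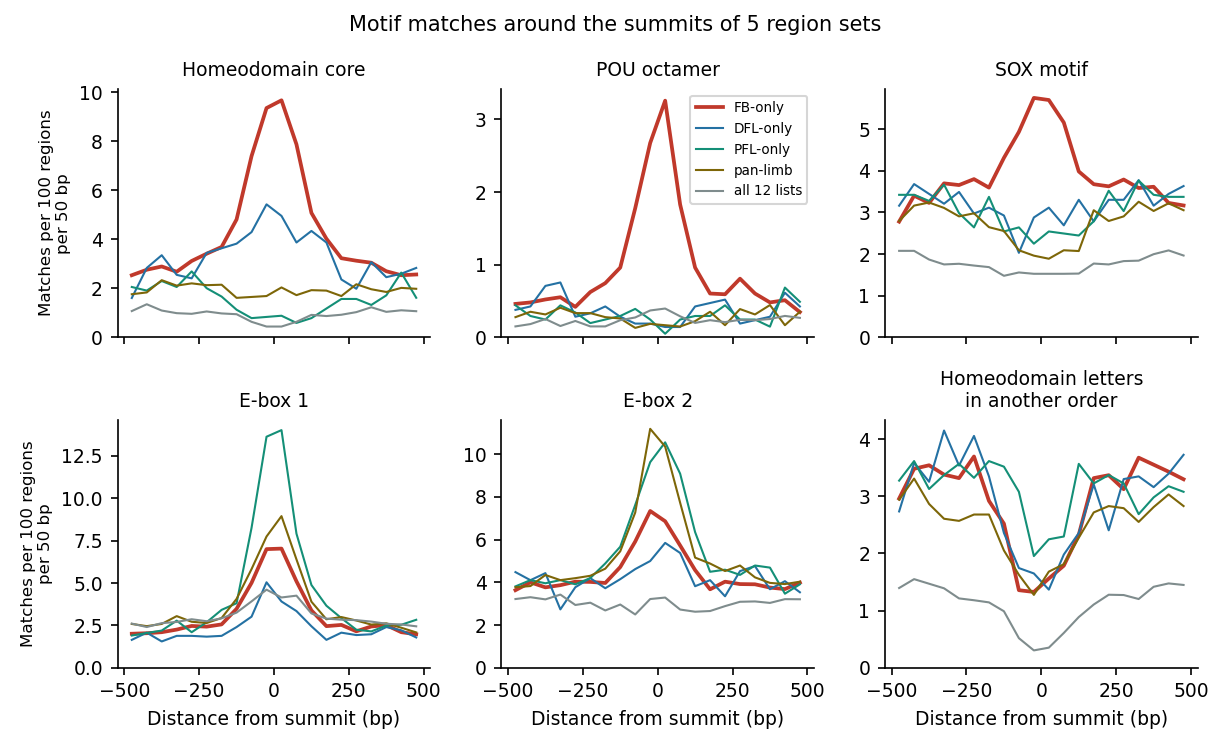
Matches per 100 regions in bins of 50 bp (vertical axes, each panel with its own scale) by distance from the summit (horizontal axis, bp) for 5 motifs and 1 reordered control in the 5 sets of regions (E-box 1 is CAGCTG and E-box 2 CAGATG). The homeodomain core, the POU octamer and the SOX motif peak at the summit of the FB-only set (ratios of centre to flank of 3.50, 5.97 and 1.71), whereas both E-boxes peak higher in PFL-only and pan-limb regions.

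At least 1 of the 3 motifs was present in 55.5% of FB-only regions, against 35.0% of DFL-only, 19.1% of PFL-only and 21.3% of pan-limb regions, and at least 2 in 12.6% against 4.20%, 0.880% and 1.46%. All 3 were present in 66 FB-only regions, 0.674%, the Myc region shown above being the strongest. From the lowest to the highest of 4 equal groups by mean fold the octamer share was 8.17%, 9.93%, 9.55% and 13.4%, and the TAATTA share 27.9%, 33.3%, 34.5% and 36.2%, and the CAGCTG share rose from 24.3% to 28.4%, whereas CAGATG stayed between 27.7% and 29.5%. The strongest Robo1 region held 3 octamers.

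Motifs also varied with the gene list of the nearest gene, in small numbers. Of the 61 FB-only regions near subpallial factors 13 held the octamer (21.3%), and of the 81 near pallial factors 7 (8.64%). CAGCTG was in 52 of the 122 regions near neuronal differentiation genes (42.6%) and in 25 of the 98 near progenitor genes (25.5%). TAATTA was in 20 of 48 near diencephalic factors (41.7%). No test was made between lists.

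The last question is whether the height of these regions in FB differed between the genotypes, which the rule used only by asking for presence in both. Regions listed in only 1 genotype were left out beforehand, which limits the differences that the comparison can show. Over the 37552 regions in all 4 FB lists, limma on median-centred log2 folds called 10 (0.0266%) at an adjusted p under 0.05, 7 higher and 3 lower in 542. Of the 9793 FB-only regions 1 was called, higher in 542. At an unadjusted p under 0.05 there were 1147 FB-only regions (11.7%), 674 higher and 473 lower, beside 3524 (9.38%) of all regions tested.

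The called region was intergenic, on chromosome 2 at 46297254 to 46297850, 1180116 bp from Zeb2, a zinc finger factor of neural development. Its folds were 8.64 and 8.94 in wt FB and 16.9 and 15.5 in 542 FB. The genotypes did not overlap, and the log2 difference between 542 and wt was 0.92 ± 0.12 (SE) with an adjusted p of 0.0494 (limma, Benjamini-Hochberg). The adjusted p rose to 0.108 with no centring, 0.0824 with quantile normalisation and 0.0654 without 542 FB replicate 1, so the call depends on that library and on the scaling, while the log2 difference was 0.88, 0.92 and 0.85 in these settings. The call held without any 1 of the other 3 FB libraries (adjusted p of 0.00514 to 0.0155, limma) and with a replicate block (0.0213). No FB-only region passed in the other direction. The largest falls in 542 were at an intronic region 30270 bp from Tuba3b, with 14.2 and 10.2 in wt and 4.81 and 6.15 in 542 (adjusted p = 0.143, limma), and at an intronic region 147596 bp from 2610001J05Rik, with 14.9 and 12.8 in wt and 6.33 and 6.31 in 542 (adjusted p = 0.0524, limma).

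Over all FB-only regions, each listed in every FB library of both genotypes, the genotypes lay close together. The mean log2 fold of these regions, relative to the median of all regions tested, was -0.30 and -0.28 in wt and -0.26 and -0.28 in 542. The difference of 0.02 had an exact permutation p of 0.333, the smallest that 2 against 2 libraries can give. Without centring it was -0.01. Only 3 FB-only regions, among 19 of all regions tested, differed by more than 1 on the log2 scale.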

How the data were processed

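ATAC-seq was measured in 13 libraries, of which 12 entered the rule. The authors trimmed reads with cutadapt, mapped them with bowtie2 to mm10 (wt) or to a mutant genome carrying the insertion (542), removed mitochondrial, discordant and low-quality pairs and duplicates (bamtools, Picard), converted them with bedtools and called regions per library, without a control, with MACS2. The deposited columns give the fold (a ratio to the local background), the -log10 p-value and -log10 q-value of each summit, and the summit position (other). Versions are given by the authors and are not repeated here. Counts are not used here. The tags under a summit were worked out as the integer for which the Poisson formula returns the fold and the p-value to within 0.001, and the commonest background among them gave the depth. These estimates cover counting error only.

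Rows of 1 region with several summits were reduced to the strongest, ranked by q-value, then fold, and the first 50000 were kept per library. A region was present where at least 1 bp overlapped, and a listed region was credited to the consensus region it overlapped most. A 542 file gives positions on the mutant genome, so chromosome 2 was used only up to 75 Mb, before the insertion. Summits were annotated with GENCODE M21 and sequences read from GRCm38.p6. Motifs were searched on both strands in 300 bp. Genotypes in FB were compared with limma 3.58.1 (R 4.3.3, trended eBayes, Benjamini-Hochberg adjustment over all regions in the 4 FB lists) on log2 folds centred on each library's median. Single values were compared with exact permutation tests. The code was tested on simulated data with Python 3.11.15, numpy 2.4.6, pandas 2.3.3 and scipy 1.17.1.

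The regions, the gene lists and the tests were chosen with earlier results of these data known. The text names the 10 strongest regions, the 10 genes nearest to most of them, up to 3 genes per list with their strongest region, the regions at the edge of the rule and those called or most changed between genotypes. Some genes that this rule names are not reported here. Genes named after their values were seen are marked or are further members of a list. Replicates are separate pools of embryos.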

Additional observations from a re-analysis of the deposited data

Results flagged for a closer look

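A wt DFL library from earlier work took no part in the rule, and its 50000 strongest regions overlapped 173 of the 9793 FB-only regions (1.77%). It is given because a library outside the comparisons held some of these regions. The limb libraries of 542 held 2.72% to 5.05% of the regions chosen in wt alone, so an overlap of this size was also seen in other limb libraries that took no part in a choice. It overlapped 81.5% of DFL-only, 13.5% of PFL-only and 94.5% of pan-limb regions. At any rank it held a region at 19.9% of the FB-only regions. The count of FB-only regions with this library added to the limb libraries was 9620.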

How the results depend on the processing

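The number of FB-only regions (9793) fell to 3002 with lists of 20000, of which 58.3% overlapped one of the 9793 and which covered 17.9% of these, and rose to 15754 with all deposited regions, of which 38% overlapped one of the 9793 and which covered 61.1% of these. With 5 other settings and with the earlier wt DFL library counted as limb it stayed between 8502 and 9974. Leaving out 1 library at a time gave 9935 to 10863. The difference between 542 FB and limb libraries in the share of wt-chosen regions stayed at 74.2 to 80.5 points under 3 alternatives. Regions chosen on replicate 1 of both genotypes and measured in replicate 2 gave 85.0 points between FB and limb. Each had an exact permutation p of 0.0667.

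The genotype calls depend on the settings. Against 10 regions called in all and 1 FB-only region, limma called 4 and 0 without centring, 7 and 0 with quantile normalisation, 0 and 0 with lists of 20000 (1394 and 330 at an unadjusted p under 0.05), and 188 and 48 with log2 of -log10 q in place of the fold. Without centring 3506 regions and 1034 FB-only regions had an unadjusted p under 0.05, and with quantile normalisation 3530 and 1110. Leaving out 1 FB library gave 27 to 55 regions and 3 to 9 FB-only regions, the lone library being assumed to vary like the others. With a replicate block the counts were 29 and 4. The numbers do not pair the samples: deviations of same-numbered FB libraries had r of -0.04 over 37552 regions. The mean log2 difference of the FB-only regions reversed from 0.02 to -0.015 without centring, was 0.04 when centred on the regions in all 12 lists and 0.01 to 0.04 without 1 FB library. The cause of these changes was not tested.

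The promoter share was 1.46% with all deposited regions, 5.96% with lists of 20000 and 4.08% with a distance of 2500 bp. Of 28 counts of list genes with an FB-only region, 10 moved by more than 1.5 times. With lists of 20000 they fell from 14 to 7 for diencephalic factors, from 25 to 16 for neuronal differentiation and from 18 to 10 for transmission genes, and from 6 to 3 for limb mesenchyme and for cartilage and bone genes. Counting genes with an FB-only region within 100 kb of any of their starts, ribosomal protein genes rose from 2 to 12 of 25, 48%, and cartilage and bone (47.4%), blood and microglial (40%), myogenic and endothelial genes (37.5% each) stood above the 35.3% of all genes, as did the 7 neural lists with 69.6% to 88.9%. In a 200 bp window the shares of TAATTA, ATGCAAAT and ACAATG were 26.9%, 8.52% and 19.1%.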
